A study of Homo sapiens with 12 samples.

Results

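The sirtuins are the NAD-dependent family of deacetylases and related deacylases, encoded in the human genome by SIRT1, SIRT2, SIRT3, SIRT4, SIRT5, SIRT6 and SIRT7. Their transcripts were followed in lung cancer cells given SAHA (vorinostat), a hydroxamate inhibitor of the other deacetylase family. The members are the family's 7 gene symbols, picked as a set with earlier results of these data known: 7 genes of the 58302 in each deposited table, and all 7 had enough counts to be tested in every comparison. RNA was sequenced from the established human non-small-cell lung cancer lines NCI-H1299 and NCI-H1703, in 4 groups of 3 libraries: H1299 with SAHA, H1299 with the vehicle DMSO, H1703 with SAHA and H1703 with DMSO. Treatment lasted 24 h. The labels list 2.5, 10 and 40 µM SAHA and 0.1% DMSO without saying which dose was sequenced, so no value below belongs to a stated dose. Separate cultures are not stated for the replicates. The p-values therefore rest on the variation among these libraries alone, and it may be technical.

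Sirtuins remove acetyl or longer acyl groups from lysines and consume NAD in each cycle, releasing nicotinamide. SAHA chelates the zinc ion in the active site of the classical histone deacetylases, and sirtuins have no such catalytic zinc, so they are not targets of the drug. SIRT1, SIRT6 and SIRT7 are mainly nuclear, SIRT2 mainly cytosolic, and SIRT3, SIRT4 and SIRT5 are mitochondrial. In tumour cells the family is best known for its links to chromatin, genome repair and mitochondrial metabolism.

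Total counts ran from 14.4M to 19.4M per library, of which the 7 sirtuins together held 2995 to 4938. Of 10 lung epithelial marker genes, 2 reached a mean of 10 CPM (counts scaled to the size of the library) in H1299 with either treatment, and 5 did in H1703 with either treatment. CDH1, SFTPC, TP63 and KRT5 were at 0 in all H1299 libraries with DMSO, while all 10 had some counts in H1299 with SAHA. Markers of other cell types were low in H1299, where the summed level of 4 leukocyte genes did not reach 2 CPM in any library. In H1703 not all were low: the leukocyte sum reached 40.0 CPM with SAHA and 28.2 CPM with DMSO, nearly all of it CD14. The 3 endothelial genes summed to between 4.59 and 5.96 CPM in H1299 with SAHA, against 0.678 to 0.767 CPM with DMSO. In H1703 they summed to between 3.26 and 4.27 CPM with SAHA, against 0.275 to 0.51 CPM with DMSO. The 3 fibroblast genes summed to between 47.7 and 58.7 CPM in H1703 with SAHA, against 5.01 to 6.12 CPM with DMSO, most of it LUM. In H1299 the fibroblast genes summed to between 4.69 and 5.19 CPM with SAHA, against 0.531 to 0.961 CPM with DMSO. Whether the share of cells of any kind, rather than RNA per cell, moved with a result was not tested, and in bulk RNA fewer cells of a type and less RNA per cell cannot be told apart.

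The promoter windows of 4 members whose transcripts changed are printed first. They were picked to include a member that fell, 2 that rose and 1 that rose in a single line. Whether the windows bear on these changes was not tested. The SIRT2 start lies 244 bases inside the deposited gene's start, and the other 3 within 41 bases of theirs. Each window runs from 250 bases before to 50 bases after a transcription start of RefSeq (GRCh38.p14), 5′ to 3′ on the gene's strand. Capitals mark every match, on either strand, to the E-box CACGTG, the GC box GGGCGG, the CCAAT box CCAAT and the cyclic AMP response element TGACGTCA.
SIRT1, chr10:67884406-67884705, plus strand: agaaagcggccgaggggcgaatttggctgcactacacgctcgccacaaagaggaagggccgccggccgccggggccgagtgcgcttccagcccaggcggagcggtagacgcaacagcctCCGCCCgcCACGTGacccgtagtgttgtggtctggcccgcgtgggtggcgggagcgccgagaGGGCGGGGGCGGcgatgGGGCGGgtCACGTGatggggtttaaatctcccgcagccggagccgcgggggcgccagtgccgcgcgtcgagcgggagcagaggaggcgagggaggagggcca
SIRT4, chr12:120302071-120302370, plus strand: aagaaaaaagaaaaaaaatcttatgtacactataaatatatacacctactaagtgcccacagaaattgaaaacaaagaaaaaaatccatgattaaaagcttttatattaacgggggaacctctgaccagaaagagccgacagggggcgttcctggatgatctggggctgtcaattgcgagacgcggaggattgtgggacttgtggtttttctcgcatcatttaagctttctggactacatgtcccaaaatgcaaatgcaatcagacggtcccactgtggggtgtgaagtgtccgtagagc
SIRT6, chr19:4182514-4182813, minus strand: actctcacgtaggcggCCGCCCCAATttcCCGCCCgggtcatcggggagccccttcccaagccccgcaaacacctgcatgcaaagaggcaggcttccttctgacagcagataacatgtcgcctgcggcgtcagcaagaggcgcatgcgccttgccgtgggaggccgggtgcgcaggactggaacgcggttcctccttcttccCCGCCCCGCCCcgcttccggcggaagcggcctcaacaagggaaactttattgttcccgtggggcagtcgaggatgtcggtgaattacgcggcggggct
SIRT2, chr19:38899569-38899868, minus strand: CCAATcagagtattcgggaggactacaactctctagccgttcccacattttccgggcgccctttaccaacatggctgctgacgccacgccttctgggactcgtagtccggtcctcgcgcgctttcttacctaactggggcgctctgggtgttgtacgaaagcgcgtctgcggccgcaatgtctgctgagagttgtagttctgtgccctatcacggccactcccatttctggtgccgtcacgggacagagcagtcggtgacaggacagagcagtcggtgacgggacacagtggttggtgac

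The SIRT1 window holds 2 E-boxes and 4 GC boxes, and SIRT6 holds 4 GC boxes and 1 CCAAT box, with 2 bases that lie in a pair of motifs at once. SIRT2 holds 1 CCAAT box, at the far end of its window, and SIRT4 holds none of the 4 motifs. Among 34943 RefSeq windows of the same length, 7.23% hold the E-box, 44.9% the GC box, 34.6% the CCAAT box and 1.84% the cyclic AMP response element. In base composition SIRT4 stands apart from the other 5 members matched: its window is 42.3% G and C with 9 CpG dinucleotides, whereas the other 5 lie between 58.7% (SIRT2) and 76.3% (SIRT5) with 23 to 39 CpGs. The median of all windows is 58.7% and 14 CpGs. SIRT3 and SIRT5 hold 1 GC box each and none of the other motifs. These matches describe the letters of the windows and were not tied to any factor.

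In both lines SIRT1 fell and SIRT4, SIRT6 and SIRT7 rose with SAHA. SIRT2 rose and SIRT5 fell in H1703, whereas in H1299 neither passed the test. SIRT3 passed in neither line. Fold changes are log2 values ± SE from edgeR's quasi-likelihood test on the counts of 3 libraries against 3, with Benjamini-Hochberg adjustment over all genes, called at an adjusted p below 0.05. Levels are CPM scaled over all 12 libraries by the trimmed mean of M-values (TMM). How many of all genes have groups that do not overlap was not counted, so statements of overlap below only describe the libraries. In H1299, 3 sirtuins rose, 1 fell and 3 did not pass, and 63.8% of all 17277 genes tested were called, 33.3% higher and 30.4% lower. In H1703, 4 rose, 2 fell and 1 did not pass, and 67.4% of 17273 genes were called, 34.7% higher and 32.6% lower. A share of 57.1% called in H1299 and 85.7% in H1703 is thus, for 7 genes, near what the whole transcriptome did, and the directions and sizes of the single members carry the description. The median log2 change of the 7 was 0.19 in H1299 and 0.46 in H1703, beside 0.02 over all genes in either line.

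**Figure D1:**
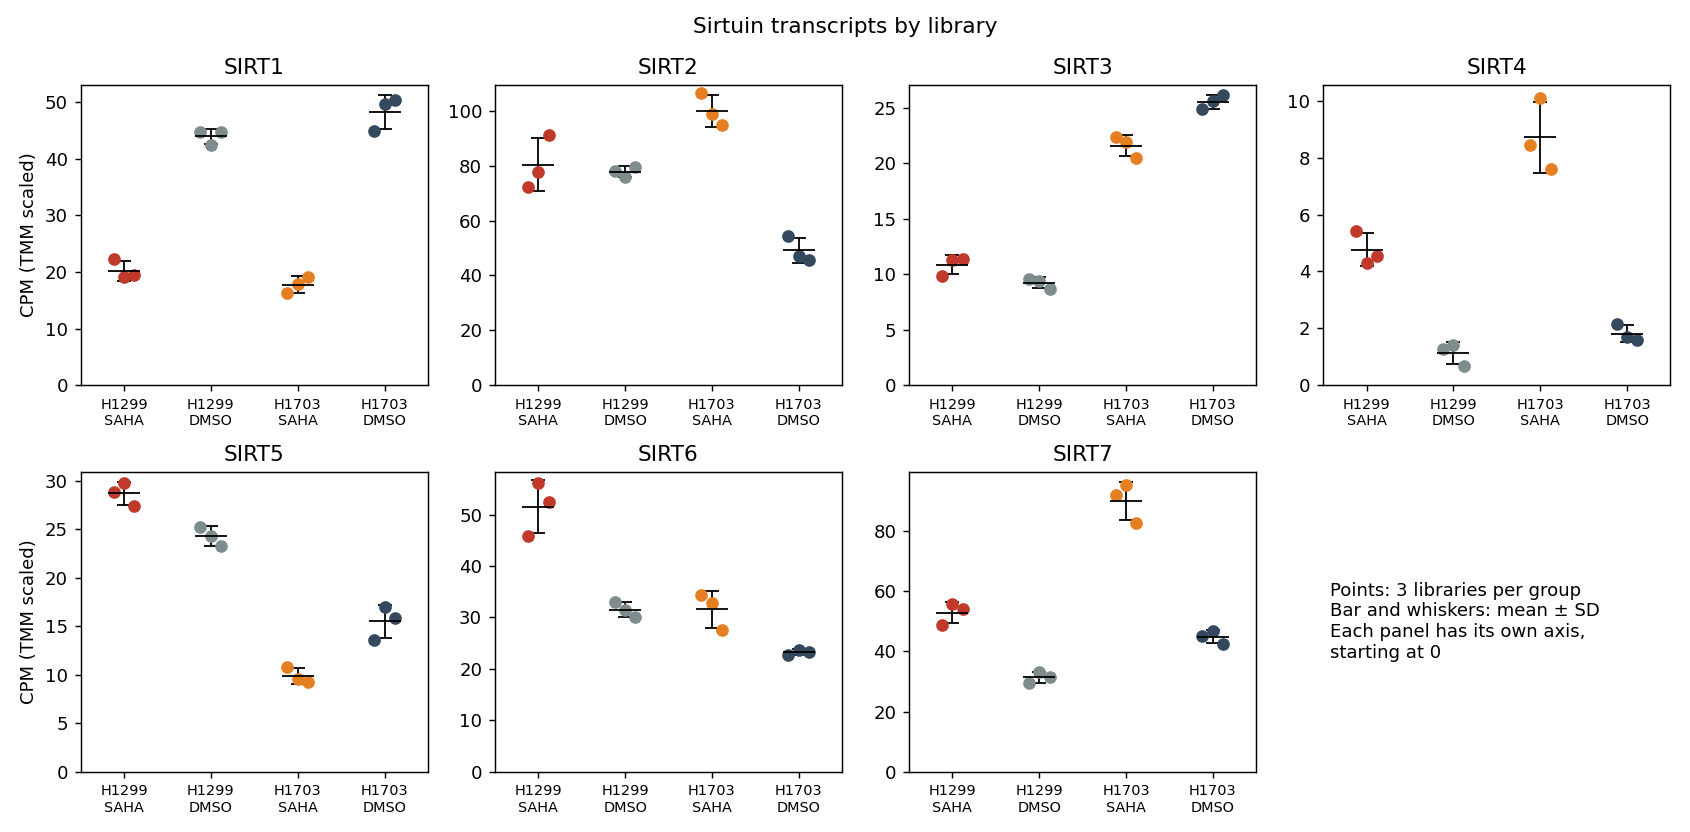
Level of each sirtuin in each library, in TMM-scaled CPM on a linear axis from 0, with SAHA and DMSO libraries of H1299 and then of H1703; points are libraries, bars and whiskers the mean ± SD of 3. SIRT1 libraries with SAHA lie below every DMSO library in both lines, and SIRT4, SIRT6 and SIRT7 libraries with SAHA lie above them.

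Among the nuclear members, SIRT1 deacetylates transcription factors such as p53 and the FOXO proteins, as well as histones. In H1299 SIRT1 (ENSG00000096717, GRCh38 chromosome 10, 67884669 to 67918390) stood at 22.3, 19.0 and 19.4 CPM with SAHA, against 44.7, 42.4 and 44.8 CPM with DMSO. In H1703 it stood at 16.3, 17.9 and 19.2 CPM with SAHA, against 44.9, 49.7 and 50.4 CPM with DMSO. The groups do not overlap in either line, and all 6 SAHA libraries are below all 6 DMSO libraries. The change was -1.18 ± 0.10 in H1299 (edgeR adjusted p = 1.17e-05), 2.26-fold lower, and -1.42 ± 0.10 in H1703 (edgeR adjusted p = 2.01e-06), 2.68-fold lower. Within libraries of the same repeat number, which the labels give as the batch, the log2 ratio of SAHA to DMSO ran from -1.19 to -0.99 in H1299 and from -1.45 to -1.37 in H1703.

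SIRT6 deacetylates histone H3 at telomeres and gene promoters and takes part in DNA repair. In H1299 its levels (ENSG00000077463, chromosome 19, 4174109 to 4182604) were 45.9, 56.1 and 52.5 CPM with SAHA, against 33.0, 31.4 and 30.1 CPM with DMSO. In H1703 they were 34.4, 32.9 and 27.5 CPM with SAHA, against 22.6, 23.7 and 23.4 CPM with DMSO. Every SAHA library is above every DMSO library of its line, by the narrowest margin in replicate 3 of H1703. SIRT6 rose by 0.66 ± 0.10 in H1299 (edgeR adjusted p = 0.000446) and by 0.46 ± 0.11 in H1703 (edgeR adjusted p = 0.00429). The repeat-wise log2 ratios spread from 0.47 to 0.83 in H1299 and from 0.23 to 0.59 in H1703.

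SIRT7 is the nucleolar sirtuin, associated with ribosomal DNA and RNA polymerase I. It stood in H1299 (ENSG00000187531, chromosome 17, 81911939 to 81921323) at 48.9, 55.8 and 54.1 CPM with SAHA, against 29.6, 33.1 and 31.4 CPM with DMSO. It stood in H1703 at 92.0, 95.2 and 82.8 CPM with SAHA, against 45.3, 46.8 and 42.5 CPM with DMSO. The groups are well apart in both lines, and the repeat-wise ratios are close together, 0.71 to 0.77 in H1299 and 0.95 to 1.02 in H1703. SIRT7 rose 1.62-fold in H1299 (0.70 ± 0.10, edgeR adjusted p = 0.000191) and 2.03-fold in H1703 (1.02 ± 0.09, edgeR adjusted p = 5.1e-06).

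SIRT2 is best known as a deacetylase of alpha-tubulin and of cell cycle proteins. In H1703 SIRT2 (ENSG00000068903, chromosome 19, 38878555 to 38899862) stood at 106, 99.0 and 94.9 CPM with SAHA, against 54.3, 47.3 and 45.8 CPM with DMSO. In H1299 it stood at 72.4, 77.8 and 91.1 CPM with SAHA, against 78.2, 75.7 and 79.6 CPM with DMSO. SIRT2 thus separates SAHA from DMSO in H1703, while in H1299 the DMSO libraries lie inside the range of the SAHA libraries. It rose 2.06-fold in H1703 (1.04 ± 0.09, edgeR adjusted p = 6.76e-06). The H1299 value was -0.0081 ± 0.10 (edgeR adjusted p = 0.948) with a 95% interval of -0.23 to 0.21, and its sign turns with the scaling. Repeat-wise ratios in H1299 ran from -0.11 to 0.19, and in H1703 from 0.96 to 1.06.

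Of the mitochondrial members, SIRT4 is a weak deacetylase with ADP-ribosyltransferase and lipoamidase activities, known to restrain glutamate dehydrogenase and pyruvate dehydrogenase. It was the scarcest sirtuin with DMSO. Its raw counts (ENSG00000089163, chromosome 12, 120302316 to 120313249) were 91, 68 and 78 in H1299 with SAHA, against 21, 24 and 12 with DMSO. In H1703 they were 127, 174 and 116 with SAHA, against 34, 29 and 23 with DMSO. No SAHA library comes near a DMSO library in either line. SIRT4 rose to 4.77 ± 0.59 CPM in H1299 with SAHA, against 1.12 ± 0.39 CPM with DMSO (SD, n = 3 each), 4.09-fold (2.03 ± 0.28, edgeR adjusted p = 0.000179). In H1703 it rose to 8.72 ± 1.26 CPM with SAHA, against 1.81 ± 0.31 CPM with DMSO, 4.86-fold (2.28 ± 0.20, edgeR adjusted p = 6.49e-06). In absolute size this exceeds 89.0% of the log2 changes of all genes in H1299 and 88.0% in H1703, the highest rank of any sirtuin.

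SIRT5 removes succinyl, malonyl and glutaryl groups rather than acetyl groups. In H1703 SIRT5 (ENSG00000124523, chromosome 6, 13574529 to 13615158) stood at 10.8, 9.58 and 9.26 CPM with SAHA, against 13.6, 17.01 and 15.9 CPM with DMSO. In H1299 it stood at 28.9, 29.8 and 27.4 CPM with SAHA, against 25.3, 24.3 and 23.3 CPM with DMSO. Neither pair of groups overlaps, and they lie in opposite order, lower with SAHA in H1703 and higher with SAHA in H1299. The fall in H1703 was -0.63 ± 0.14 (edgeR adjusted p = 0.00257), and the value in H1299 was 0.19 ± 0.10 (edgeR adjusted p = 0.124), with a 95% interval of -0.035 to 0.41. Scaled by total counts alone, the H1299 value became 0.26 and passed (edgeR adjusted p = 0.0481, against 0.0481 to 0.376 over all alternatives).

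SIRT3 is the main protein deacetylase of the mitochondrial matrix. Its levels (ENSG00000142082, chromosome 11, 215458 to 236931) were 9.85, 11.3 and 11.4 CPM in H1299 with SAHA, against 9.60, 9.39 and 8.65 CPM with DMSO. In H1703 they were 22.4, 21.9 and 20.5 CPM with SAHA, against 24.9, 25.6 and 26.2 CPM with DMSO. The groups touch without overlapping in H1299, and in H1703 all SAHA libraries are lower. Neither value passed: 0.18 ± 0.13 in H1299 (edgeR adjusted p = 0.25) with a 95% interval of -0.11 to 0.47, and -0.22 ± 0.10 in H1703 (edgeR adjusted p = 0.0634) with an interval of -0.44 to -0.0080. With total counts alone as the scale, the H1703 value was -0.33 and passed (edgeR adjusted p = 0.0139, against 0.0139 to 0.152 over all alternatives).

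Whether a sirtuin answered SAHA differently in the lines was tested as an interaction over all 12 libraries, the log2 change in H1703 minus that in H1299. SIRT2 had the higher value in H1703 (0.98 ± 0.14, edgeR adjusted p = 8.55e-05) and SIRT5 the lower (-0.89 ± 0.16, edgeR adjusted p = 0.000625). SIRT3 was also called (-0.48 ± 0.15, edgeR adjusted p = 0.0244). So 3 of 7 sirtuins passed, 1 higher and 2 lower, beside 34.9% of the 19105 genes tested, 13.7% higher and 21.2% lower. The median of all genes was -0.09. Each line's own change came from a separate fit, so their difference need not equal the interaction. The SIRT3 call is marginal: with the replicate number as a block the adjusted p was 0.0716, and over all alternatives it ran from 0.00751 to 0.0852. It also ended without H1299 SAHA replicate 3 (0.0521), without H1299 DMSO replicate 3 (0.0635) and without H1703 DMSO replicate 3 (0.0529).

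For the 4 sirtuins that changed the same way in both lines, the difference between lines did not pass. It was -0.32 ± 0.14 for SIRT1 (edgeR adjusted p = 0.0878; 95% interval -0.62 to -0.025) and 0.25 ± 0.12 for SIRT7 (edgeR adjusted p = 0.14; -0.017 to 0.52). For SIRT6 it was -0.27 ± 0.15 (edgeR adjusted p = 0.189; -0.58 to 0.053). SIRT4, at its low counts, had the widest interval, -0.60 to 0.95 around 0.18 ± 0.36 (edgeR adjusted p = 0.759). These intervals do not show that the lines respond alike. The SIRT1 difference passed with total counts alone (-0.43, edgeR adjusted p = 0.0338, against 0.0338 to 0.218 over all alternatives), and that of SIRT7 passed when mitochondrially encoded genes were left out (0.34, edgeR adjusted p = 0.0485, against 0.0485 to 0.369).

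**Figure D2:**
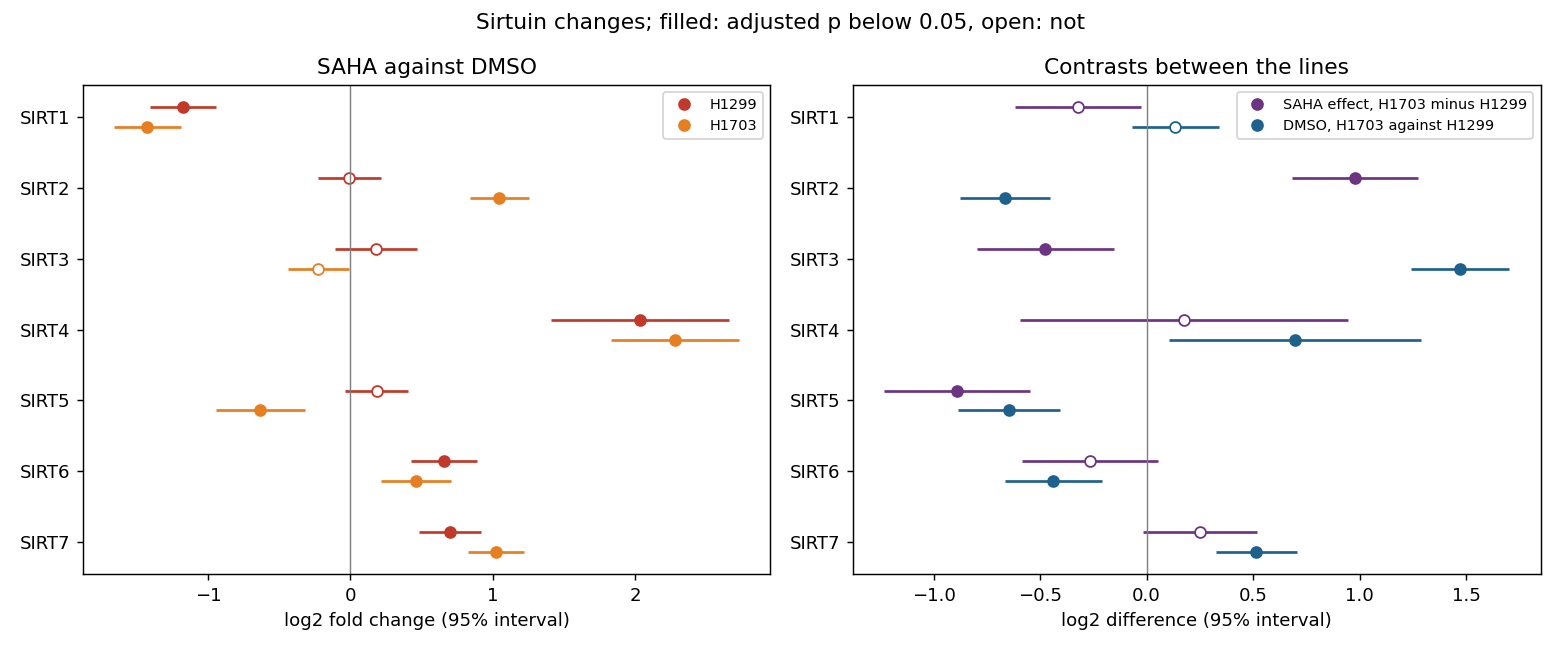
Log2 changes of the 7 sirtuins with 95% intervals. At left, SAHA against DMSO in H1299 and in H1703; at right, the SAHA effect in H1703 minus that in H1299, and H1703 against H1299 with DMSO. Filled points had an adjusted p below 0.05. SIRT1 lies left of 0 and SIRT4, SIRT6 and SIRT7 right of it in both lines, while SIRT2 and SIRT5 part between the lines.

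The lines also differed in their sirtuins without the drug. With DMSO, H1703 had more SIRT3, SIRT7 and SIRT4 and less SIRT2, SIRT5 and SIRT6 than H1299, and SIRT1 did not pass. That is 6 of 7 called, beside 66.5% of 19105 genes (34.3% higher and 32.2% lower in H1703), and the line cannot be told apart from its culture. SIRT3 showed the widest gap, 25.5 ± 0.65 CPM in H1703 and 9.21 ± 0.50 CPM in H1299 (SD, n = 3 each), 2.77-fold (1.47 ± 0.11, edgeR adjusted p = 2.53e-08). SIRT7 was higher in H1703 by 0.52 ± 0.09 (edgeR adjusted p = 0.000147), SIRT2 lower (-0.66 ± 0.10, edgeR adjusted p = 3.51e-05), SIRT5 lower (-0.65 ± 0.11, edgeR adjusted p = 0.000145) and SIRT6 lower (-0.44 ± 0.11, edgeR adjusted p = 0.00217). SIRT1 had 48.3 ± 3.01 CPM in H1703 and 44 ± 1.35 CPM in H1299 (0.14 ± 0.10, edgeR adjusted p = 0.226; 95% interval -0.070 to 0.34).

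SIRT4 passed this comparison narrowly (0.70 ± 0.28, edgeR adjusted p = 0.038, against 0.021 to 0.164 over all alternatives) on 12 to 34 counts a library. With the replicate number as a block the call was lost (edgeR adjusted p = 0.0521), as it was with the DMSO libraries alone (0.0813) and with DESeq2 (0.0521). It also ended without H1299 DMSO replicate 3, where the value was 0.43 (0.164), without H1703 DMSO replicate 1 (0.55, 0.138) and without H1703 DMSO replicate 2 (0.75, 0.0519).

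SIRT2 and SIRT5 were both lower in H1703 than in H1299 with DMSO, and lay in opposite order to each other with SAHA. SIRT2 in H1703 with SAHA, at 94.9 to 106 CPM, is above all H1299 libraries, whose highest is 91.1 CPM. SIRT5 in H1703 with SAHA, at 9.26 to 10.8 CPM, is below all other libraries, of which the lowest is 13.6 CPM in H1703 with DMSO.

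Levels of different sirtuins can be compared only per length. The length behind the deposited FPKM (fragments scaled to gene length and library size) was 16.0 kb for SIRT7, longer than the 9.39 kb the gene spans in the genome, and 2.45 kb for SIRT4, equal to the summed exons of its annotated transcripts in GENCODE v44. The other 6 did not equal that sum, which was 23.5 kb for SIRT7 and 84.3 kb for SIRT5 against an FPKM length of 9.52 kb, so the rule behind these lengths was not identified. It exceeded the merged exons of GENCODE v44 for 6 of the 7 and was 2.02 (SIRT4) to 9.28 (SIRT7) times the canonical transcript. Levels were therefore also computed as CPM per kilobase of the canonical transcript, between 1.22 kb (SIRT4) and 4.56 kb (SIRT5). Which isoforms these cells make was not measured.

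Per kilobase of the canonical transcript SIRT2 ranked first in all 4 groups. In H1299 with SAHA it had 43.2 ± 5.17 CPM per kb, followed by SIRT6 (32.2 ± 3.21), SIRT7 (30.7 ± 2.06), SIRT5 (6.29 ± 0.26), SIRT1 (4.93 ± 0.43), SIRT4 (3.92 ± 0.48) and SIRT3 (3.76 ± 0.295). In H1299 with DMSO the order of levels was SIRT2 (41.8 ± 1.04 CPM per kb), SIRT6 (19.7 ± 0.89), SIRT7 (18.2 ± 0.99), SIRT1 (10.7 ± 0.33), SIRT5 (5.32 ± 0.22), SIRT3 (3.20 ± 0.17) and SIRT4 (0.92 ± 0.32). SIRT6 and SIRT7 overlap in both H1299 groups, as do SIRT4 and SIRT3 with SAHA, and the other neighbours in these orders do not.

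In H1703 with SAHA the order was SIRT2 (53.8 ± 3.13 CPM per kb), SIRT7 (52.2 ± 3.71), SIRT6 (19.8 ± 2.27), SIRT3 (7.49 ± 0.34), SIRT4 (7.17 ± 1.04), SIRT1 (4.33 ± 0.35) and SIRT5 (2.17 ± 0.18). With DMSO it was SIRT2 (26.4 ± 2.44 CPM per kb), SIRT7 (26.0 ± 1.26), SIRT6 (14.5 ± 0.34), SIRT1 (11.8 ± 0.73), SIRT3 (8.86 ± 0.23), SIRT5 (3.40 ± 0.38) and SIRT4 (1.49 ± 0.26). SIRT2 and SIRT7 overlap in both H1703 groups, and SIRT3 and SIRT4 overlap with SAHA. SIRT1 held 3.97% of the summed level in H1299 with SAHA, against 10.7% with DMSO, and 2.97% in H1703 with SAHA, against 12.7% with DMSO. SIRT4 held 3.16% and 4.87% with SAHA in H1299 and H1703, against 0.92% and 1.61% with DMSO. These shares depend on the length used: by deposited FPKM, SIRT1 held 9.17% in H1299 with SAHA, against 23.4% with DMSO, and 7.54% in H1703 with SAHA, against 27.1% with DMSO. SIRT4 by FPKM held 8.29% and 14.1% with SAHA in H1299 and H1703, against 2.28% and 3.90% with DMSO. On the deposited FPKM the order differs: SIRT1 comes first in H1703 with DMSO (4.87 ± 0.32 FPKM) and second in H1299 with DMSO (5.07 ± 0.22 FPKM), so statements on which sirtuin is most abundant depend on the length used.

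**Figure D3:**
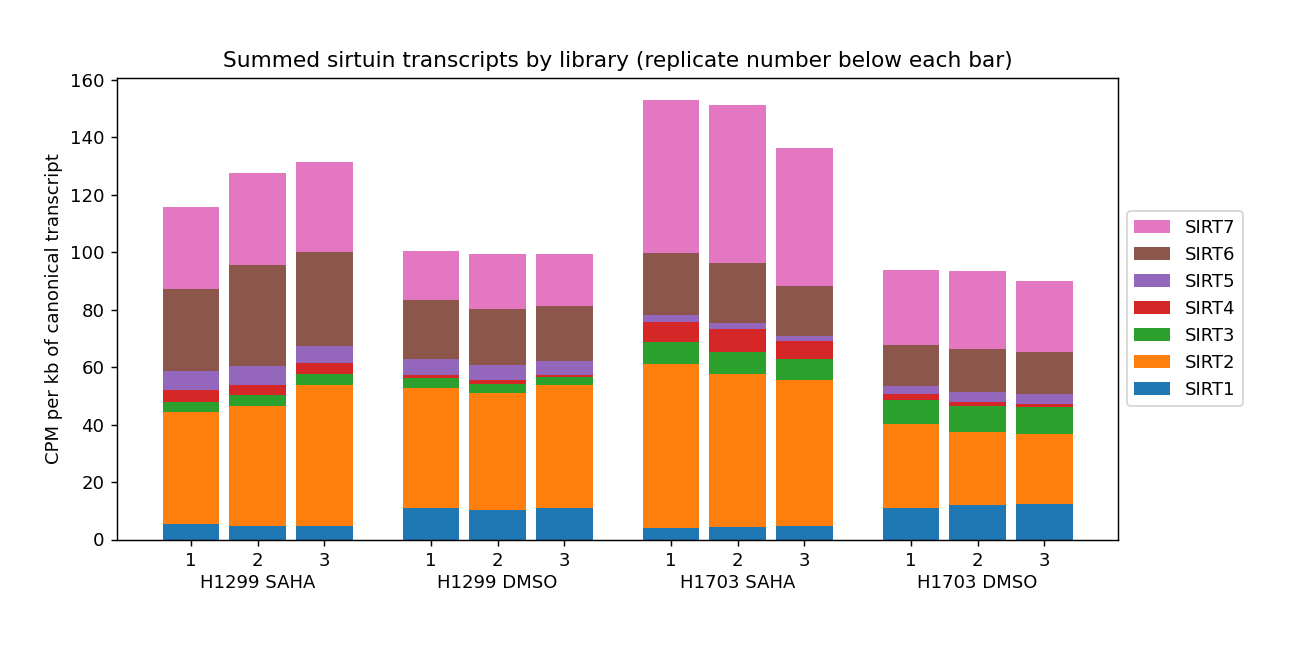
Stacked bars of the 7 sirtuins in each library, in TMM-scaled CPM per kilobase of canonical transcript, with the replicate number under each bar. The sum is 115.6 to 131.5 in H1299 with SAHA and 99.4 to 101 with DMSO, and 136 to 153 in H1703 with SAHA and 90.0 to 93.9 with DMSO; SIRT2, SIRT6 and SIRT7 fill most of every bar.

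Overlapping genes can share reads, and no source used here says if strand was used when they were counted. SIRT7 overlaps MAFG, a small MAF transcription factor gene on the same strand, over 3054 bases. MAFG counts varied widely between replicates, 1120, 984 and 1122 in H1299 with SAHA, against 1672, 1586 and 564 with DMSO. The SIRT7 counts in those libraries were 820, 879 and 925 with SAHA, against 491, 560 and 556 with DMSO. In H1703 MAFG had 1564, 707 and 1261 counts with SAHA, against 594, 623 and 1536 with DMSO, where SIRT7 had 1383, 1640 and 1262 counts with SAHA, against 710, 803 and 619 with DMSO. The MAFG groups overlap in both lines and the SIRT7 groups in neither. The part of shared reads in the SIRT7 result was not tested. MAFG did not pass in H1299 (-0.27 ± 0.44, edgeR adjusted p = 0.624) or in H1703 (0.36 ± 0.61, edgeR adjusted p = 0.632).

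SIRT2 overlaps the start of NFKBIB, an inhibitor of NF-kB on the opposite strand, over 163 bases inside the promoter window printed above. NFKBIB fell in both lines, by -0.53 ± 0.11 in H1299 (edgeR adjusted p = 0.00184) and -0.24 ± 0.09 in H1703 (edgeR adjusted p = 0.0328), while SIRT2 rose in H1703. SIRT3 overlaps PSMD13, a proteasome subunit gene on the opposite strand, over 386 bases. PSMD13 rose in H1703 (0.58 ± 0.09, edgeR adjusted p = 0.000407), where the SIRT3 value was below 0, and it had 0.27 ± 0.13 in H1299 (edgeR adjusted p = 0.106). SIRT5 contains an antisense gene, AL441883.1, with 46 counts over all 12 libraries, too few to test.

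The neighbour of SIRT6 moved with it. ANKRD24, an ankyrin repeat gene, lies 750 bases away on the opposite strand and rose to 21.7 CPM in H1299 with SAHA, against 0.645 CPM with DMSO (5.00 ± 0.33, edgeR adjusted p = 4.94e-06). In H1703 it rose to 19.5 CPM with SAHA, against 2.07 CPM with DMSO (3.24 ± 0.19, edgeR adjusted p = 5.52e-07). Its part in the SIRT6 result was not tested. Downstream of SIRT3, RIC8A, a chaperone of G protein alpha subunits, lies 345 bases away and rose in H1299 (0.33 ± 0.12, edgeR adjusted p = 0.0302) and in H1703 (0.38 ± 0.09, edgeR adjusted p = 0.00516). The other tested neighbours within 1000 bases were NOL7 beside SIRT5, lower in H1299 (-0.21 ± 0.07, edgeR adjusted p = 0.0352), PCYT2 beside SIRT7, lower in H1703 (-0.30 ± 0.11, edgeR adjusted p = 0.0325), and RINL beside SIRT2, which passed in neither line.

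The genes whose pattern over the 12 libraries was nearest to each sirtuin were found among 10428 well-expressed protein-coding genes, by the root mean square difference of log2 CPM after centring each gene on its own mean. For SIRT1 they were MCPH1, of the DNA damage response and chromosome condensation (0.093), and the insulator protein gene CTCF (0.095), beside a spread of SIRT1 itself of 0.64. GPX4, a glutathione peroxidase that guards membranes from lipid peroxidation (0.12), and EIF1B (0.13) were nearest to SIRT2, and HPS6 (0.090) and ZZEF1 (0.098) to SIRT3. For SIRT4 they were IL11RA, the interleukin-11 receptor (0.17), and DNAAF3, a dynein assembly factor (0.19), and for SIRT5 ARID3B (0.12) and ACSF3, a mitochondrial malonyl-CoA synthetase (0.13). CEP131 (0.083) and BICD2 (0.084) were nearest to SIRT6, and ZDHHC9 (0.075) and the heat shock gene HSPA1B (0.083) to SIRT7. HSPA1B has a near-identical copy, so its count is uncertain. The 12 libraries form 4 groups, so this measure mainly compares the 4 group levels.

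Sirtuins depend on NAD, which is made from nicotinamide by NAMPT and the NMNAT enzymes and is also used by PARPs and CD38. Of 13 NAD synthesis and use genes listed, 12 were tested: 6 rose and 4 fell in H1299 (median 0.16), and 4 rose and 6 fell in H1703 (median -0.20). Over all genes 33.3% rose and 30.4% fell in H1299, 34.7% rose and 32.6% fell in H1703, and the median was 0.02 in either line. NMNAT2, a neuronal isoform of the adenylyltransferase, rose 8.16-fold in H1299 (3.03 ± 0.14) and 3.71-fold in H1703 (1.89 ± 0.10). NADK, which phosphorylates NAD to NADP, fell in H1299 to 63.9 CPM with SAHA, against 106 CPM with DMSO (-0.78 ± 0.08). NNMT, which methylates nicotinamide, fell to 18.6 CPM in H1703 with SAHA, against 657 CPM with DMSO (-5.12 ± 0.11) and was under 1 CPM on average in both H1299 groups. All the named values of these lists have an edgeR adjusted p below 0.05 over all genes.

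Of 10 other NAD-consuming enzymes, 2 rose and 5 fell in H1299 (median -0.17), and 3 rose and 7 fell in H1703 (median -0.55). Of all genes, 63.8% were called in H1299 (33.3% higher and 30.4% lower) and 67.4% in H1703 (34.7% higher and 32.6% lower). In H1299 the mono-ADP-ribosyltransferase gene PARP14 (-1.71 ± 0.13) and the poly-ADP-ribosyltransferase gene PARP1 (-0.61 ± 0.07) fell, and SARM1, an NAD hydrolase of axons, rose (1.72 ± 0.25). In H1703 the NAD glycohydrolase CD38 fell to 21.5 CPM with SAHA, against 63.9 CPM with DMSO (-1.55 ± 0.11), PARP2 fell (-1.34 ± 0.11) and SARM1 rose (0.85 ± 0.10).

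Of 9 genes whose products bind, modify or repress SIRT1, 2 rose and 5 fell in either line (medians -0.38 in H1299 and -0.41 in H1703), where 63.8% of all genes were called in H1299 and 67.4% in H1703. SENP1, which removes SUMO from SIRT1 (-1.23 ± 0.09), and the corepressor CTBP1 (-1.15 ± 0.10) fell in H1299, and BCL6, a repressor that recruits SIRT1, rose (0.75 ± 0.17). In H1703 E2F1, an activator of SIRT1 transcription, fell to 14.2 CPM with SAHA, against 82.7 CPM with DMSO (-2.53 ± 0.10), CTBP1 fell (-1.07 ± 0.07) and BCL6 rose (1.33 ± 0.15). Their part in the SIRT1 result was not tested.

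Of 17 genes for nuclear and cytosolic substrates, 7 rose and 7 fell in H1299 (median -0.055), and 6 rose and 8 fell in H1703 (median -0.16), beside 63.8% and 67.4% of all genes called in either direction in H1299 and H1703. NBN, a DNA break sensor deacetylated by SIRT1, fell in H1299 (-1.73 ± 0.15) and in H1703 (-1.63 ± 0.11). XRCC6, which encodes Ku70, fell in H1703 (-1.04 ± 0.06) and FOXO1 rose (1.76 ± 0.16). Mitochondrial substrate genes gave 6 up and 7 down of 16 tested in H1299 (median -0.053) and 4 up and 7 down of 15 in H1703 (median -0.29), against the same shares of all genes, 63.8% and 67.4%. GLUD1, the glutamate dehydrogenase that SIRT4 modifies, fell in H1299 (-0.82 ± 0.07) and in H1703 (-0.88 ± 0.08). MLYCD, a malonyl-CoA decarboxylase (1.58 ± 0.11), and IDH2, a SIRT3 substrate (1.55 ± 0.11), rose in H1299. In H1703 the protease LONP1 fell (-0.93 ± 0.08) and SDHA, a subunit of succinate dehydrogenase, rose (0.78 ± 0.09).

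Beside the sirtuins, the family of zinc-dependent deacetylases had 3 of 11 higher and 2 lower in H1299 (median 0.087), and 4 higher and 2 lower in H1703 (median -0.0050). Which of these enzymes SAHA inhibited in these cells was not measured. HDAC5, of class IIa, rose in H1299 (1.60 ± 0.10) and H1703 (2.14 ± 0.08), HDAC7 fell in H1299 (-0.60 ± 0.11) and H1703 (-1.52 ± 0.12), and HDAC11 rose in H1299 (1.55 ± 0.14). The number of genes called was 4 of 7 sirtuins and 5 of 11 zinc-dependent deacetylases in H1299, and 6 of 7 and 6 of 11 in H1703. The zinc-dependent genes' shares, 45.5% in H1299 and 54.5% in H1703, stand beside 63.8% and 67.4% of all genes. No test of a difference between the families was made, and none is claimed.

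**Figure D4:**
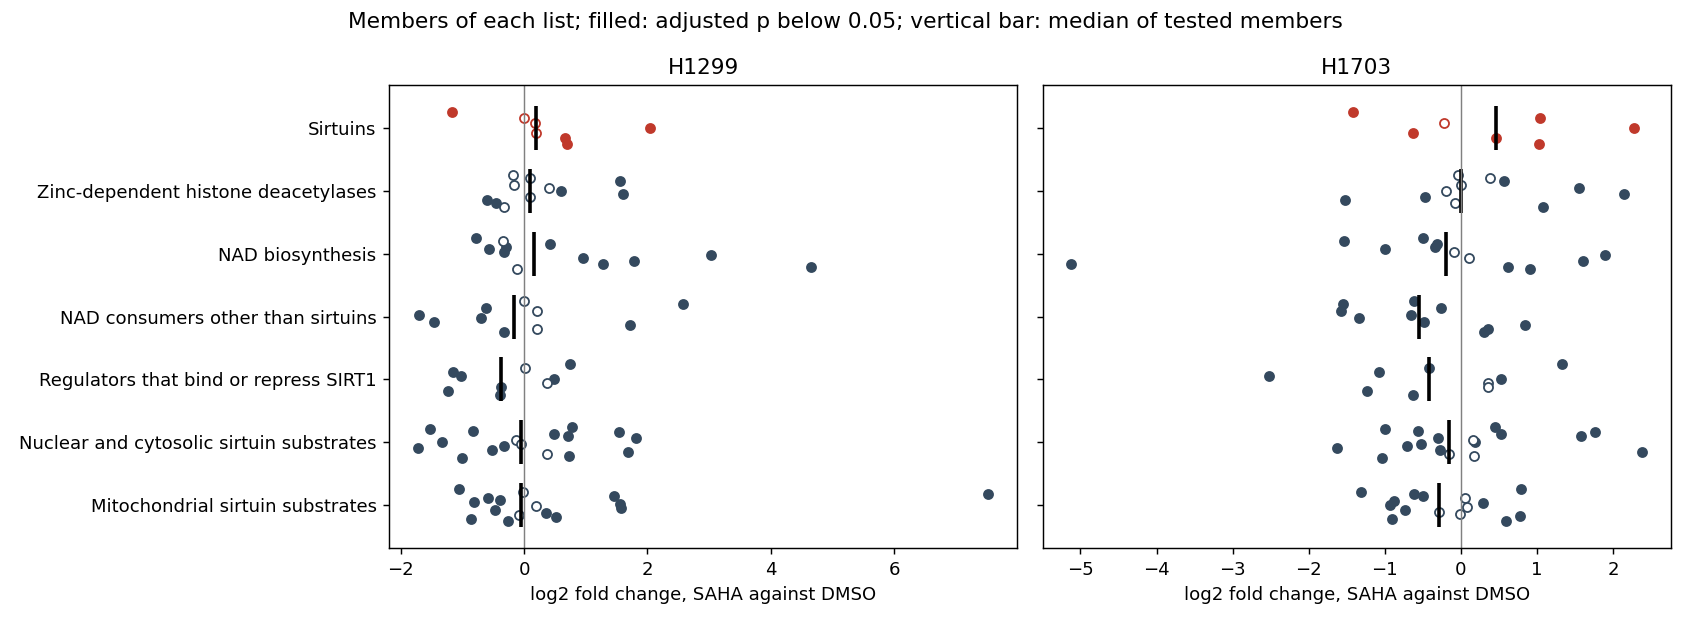
Log2 change with SAHA against DMSO of each tested member of the sirtuins (red) and of the 6 comparison lists, in H1299 at left and H1703 at right, with separate horizontal scales; filled points had an adjusted p below 0.05 and vertical bars are medians of the tested members. Every list holds members on both sides of 0 in both lines. The point near 7.5 in H1299 is ACSS1, a gene at 0 CPM in H1299 with DMSO, whose fitted value is no bound.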

How the data were processed

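Polyadenylated RNA of the lung cancer lines was sequenced, 12 libraries in 4 groups of 3, grouped by sample title. The authors deposited 1 table per line; per the file headers it holds raw counts and FPKM values per gene and library. Control columns named with a shorthand were taken as DMSO, since each line has only these groups. GRCh38, HISAT2 2.1.0, StringTie 1.3.3b, edgeR 3.30.3, fastp and FastQC 0.11.9 stand in the submitters' processing notes, without roles. Which tool counted reads, and on which annotation, is not stated there. The labels name both a directional and an un-stranded library, so the use of strand is unknown. Deposited FPKM values were used only for levels between genes.

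In R 4.3.3, edgeR 4.0.16 dropped low genes (filterByExpr with a count of 10 and a total of 15), scaled libraries by TMM and ran its robust quasi-likelihood test. The p-values were adjusted by Benjamini-Hochberg across every gene in the fit. Each line was fitted alone, and contrasts between lines in 1 fit of all 12 libraries. The SE is the log2 change divided by the root of F, and intervals use the fit's degrees of freedom. Fits were tested on simulated data. CPM printed in the text are scaled over all 12 libraries, so their ratios can differ slightly from within-line fold changes. Repeat-wise ratios and patterns used log2(CPM + 0.5).

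The labels give the replicate number as the batch, and on that ground it pairs libraries. Deviations of same-numbered libraries from their group means correlated between -0.054 and 0.039 across genes. In H1299 every SAHA library had a higher value with a differently numbered DMSO library (0.149, 0.076 and 0.124). In H1703 only replicate 1 did (0.036). The pairing behind the repeat-wise ratios thus rests on the labels alone. The block is an alternative. Others were RLE factors, total counts, no mitochondrially encoded genes, no filter, a non-robust fit, DESeq2 1.42.0, other sets of libraries and each library left out.

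The members and lists were chosen with earlier results of these data known. Named genes were all sirtuins; per list and line the 2 called genes of smallest adjusted p (mean log2 CPM of 1 or more) and the best of the opposite direction; the 2 nearest patterns; and neighbours within 1000 bases. A gene that this rule names is not reported here. Promoters are RefSeq's, for 6 of 7 sirtuins, at the start nearest the deposited gene start.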

Additional observations from a re-analysis of the deposited data

Results flagged for a closer look

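The SAHA effect differed between H1703 and H1299 for 3 of 7 sirtuins, by the interaction in edgeR's fit over all 12 libraries. The same test called 34.9% of all 19105 genes, so for 7 genes that count is near the share of all genes. The difference is given as the log2 change in H1703 minus that in H1299, with a median of -0.09 over all genes. The difference was 0.98 for SIRT2, whose SAHA libraries were all above those with DMSO in H1703 and overlapped them in H1299. It was -0.89 for SIRT5, lower with SAHA in H1703 and higher in H1299 without overlap of groups, though the H1299 value did not pass. For SIRT3 it was -0.48, again with groups apart in opposite order, though neither line's own value passed. The share of all genes with groups apart was not counted, so that separation describes the libraries and adds nothing to the tests. The SIRT3 call was lost in 7 of 19 alternatives.

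The same test passed for genes named beside the sirtuins, as it did for 34.9% of all genes. Among NAD synthesis and use genes the difference was -6.47 for NNMT and -1.21 for NMNAT2. Among NAD-consuming enzymes it was -4.20 for CD38, 0.98 for PARP14, -0.94 for SARM1, -0.72 for PARP2 and 0.28 for PARP1. The sizes for NNMT and CD38 rest on H1299 levels near 0: NNMT averaged 0.949 CPM with SAHA and 0.371 CPM with DMSO there, and CD38 0.764 CPM with SAHA and 0.116 CPM with DMSO. E2F1 had -1.57. Among substrate genes it was -1.56 for MLYCD, -1.34 for IDH2 and -1.19 for LONP1. Among zinc-dependent deacetylases it was -1.06 for HDAC11, -0.99 for HDAC7 and 0.47 for HDAC5. No cause of these differences was tested.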

How the results depend on the processing

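Of 28 sirtuin results (7 genes in 4 comparisons), 19 kept their direction and their side of the threshold under every alternative run, and 441 of 469 alternative values did. All calls of SIRT1, SIRT4, SIRT6 and SIRT7 with SAHA held in both lines, as did those of SIRT2 and SIRT5 in H1703 and their interactions. Sirtuins called numbered 4 to 5 in H1299, 6 to 7 in H1703, 2 to 4 in the interaction and 5 to 6 between lines with DMSO. In the main fits 63.8%, 67.4%, 34.9% and 66.5% of all genes were called in these comparisons. Over the same fits, all genes called numbered 10346 to 12296 in H1299 and 11004 to 12866 in H1703. They numbered 5934 to 6912 in the interaction and 12023 to 13050 between lines with DMSO. The replicate block ended the SIRT3 interaction (-0.47) and the SIRT4 difference between lines with DMSO (0.71), and changed no other sirtuin call.

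SIRT2 in H1299 turned to 0.0075 with RLE factors and with DESeq2, 0.060 with total counts and 0.047 in 1 fit over all 12 libraries, and ran from -0.12 to 0.064 with single libraries left out. The SIRT4 interaction ran from -0.028 to 0.44 over left-out libraries. Total counts alone turned SIRT1 between lines with DMSO to -0.059, weakened SIRT4 there (0.50), and passed SIRT5 in H1299 (0.26), SIRT3 in H1703 (-0.33) and the SIRT1 interaction (-0.43). That scaling moved the median gene by 0.071 in H1299, -0.10 in H1703, -0.10 in the interaction and -0.19 between lines with DMSO. The SIRT3 interaction also missed with RLE factors (-0.41), without mitochondrially encoded genes (-0.39) and with no filter (-0.47), and ran from -0.54 to -0.43 over left-out libraries. SIRT4 between lines with DMSO also missed without mitochondrially encoded genes (0.62), with no filter (0.70), with DESeq2 (0.67) and with DMSO libraries alone (0.69), and ran from 0.43 to 0.90 over left-out libraries. SIRT7 passed in the interaction without mitochondrially encoded genes (0.34). The median gene of the interaction moved by 0.068 with RLE factors and by 0.086 without mitochondrially encoded genes. Between lines with DMSO it moved by -0.071 without mitochondrially encoded genes. The cause of these moves was not tested. SIRT4 is limited by depth, at 12 to 34 counts a library with DMSO.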
